A study of Rattus norvegicus with 3 samples.

Results

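Potassium channel genes were taken as every feature whose symbol begins with Kcn, which gave 91 of the 23098 features in rat nucleus accumbens nuclei. They comprised 34 pore-forming or silent voltage-gated subunits (Kcna to Kcnh, Kcns and Kcnv), 15 inward rectifier genes (Kcnj), 14 tandem-pore leak channel genes (Kcnk), 12 genes of calcium- or sodium-activated channels (Kcnm, Kcnn, Kcnt and Kcnu), 4 Kcnq genes, 4 Kcnip genes, 7 accessory subunits (Kcnab and Kcne) and 1 regulator of channel assembly (Kcnrg). Single-nucleus RNA sequencing had been made of nucleus accumbens punches from outbred Wistar rats aged 16 weeks, in 3 groups with 1 library each: rats classed as low anxiety, rats classed as high anxiety, and high anxiety rats given urolithin A for 2 months. Urolithin A is a gut microbial metabolite of ellagitannins. Each library pooled the punches of 5 hemispheres, so it is 1 measurement of its group, and the rats in it cannot be told apart. No group was given urolithin A without high anxiety.

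Potassium channels set the resting potential of a cell and end its action potentials. In medium spiny neurons, the projection neurons of the accumbens that carry either the D1 or the D2 dopamine receptor, strong inward rectifiers hold the cell at a negative resting potential and A-type channels delay its firing. Fast-spiking interneurons use channels of the Kcnc family to repolarize quickly, and astrocytes and oligodendrocytes take up the potassium that neurons release, in large part through the inward rectifier encoded by Kcnj10.

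After filtering, 3379 nuclei of the low anxiety library, 3694 of the high anxiety library and 3421 of the urolithin A library were kept, and their median depths were 3952, 4549.5 and 4726 unique molecular identifiers (UMIs). Nuclei were clustered without any Kcn gene, and clusters were named from marker genes, so every class below is D1-like, astrocyte-like and so on, although the suffix is left out. D1 neurons numbered 750, 653 and 755 in that order, D2 neurons 557, 508 and 527, and oligodendrocytes 704, 1043 and 925. The D1 marker list summed to 1078, 1024 and 1080 CPM (the UMIs of a gene scaled to the UMI total of the class) in D1 neurons and 59.19, 35.41 and 31.88 in D2 neurons. Glutamatergic nuclei, a cell type that the accumbens itself is not known for, numbered 99, 198 and 21. Between 4 and 6 barcodes were shared by each pair of libraries. In the sentences below, 3 values in a row are the low anxiety, high anxiety and urolithin A libraries in that order, in CPM. CPM is not scaled to transcript length, so each gene is compared between classes and never with another gene.

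Of the 91 genes, 57 had at least 300 UMIs over the 3 libraries, 80 had at least 30, and 2 (Kcna10 and Kcne5) had none. The class with the highest mean level, among 9 classes of at least 100 nuclei, was a neuronal one for 43 of the 57 genes and a glial one for 14. Glutamatergic neurons held the maximum for 13 genes, GABAergic interneurons for 12 and D2 neurons for 7. Eccentric medium spiny neurons, named from a marker list with Casz1 and Otof, held it for 6 and D1 neurons for 5. Oligodendrocyte precursors held it for 5, oligodendrocytes for 4, microglia for 3 and astrocytes for 2. For 33 of the 57 genes the top class lay above all 8 other classes in every library. The same counts were not made over all genes, so they do not set the Kcn genes apart from other genes.

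**Figure D1:**
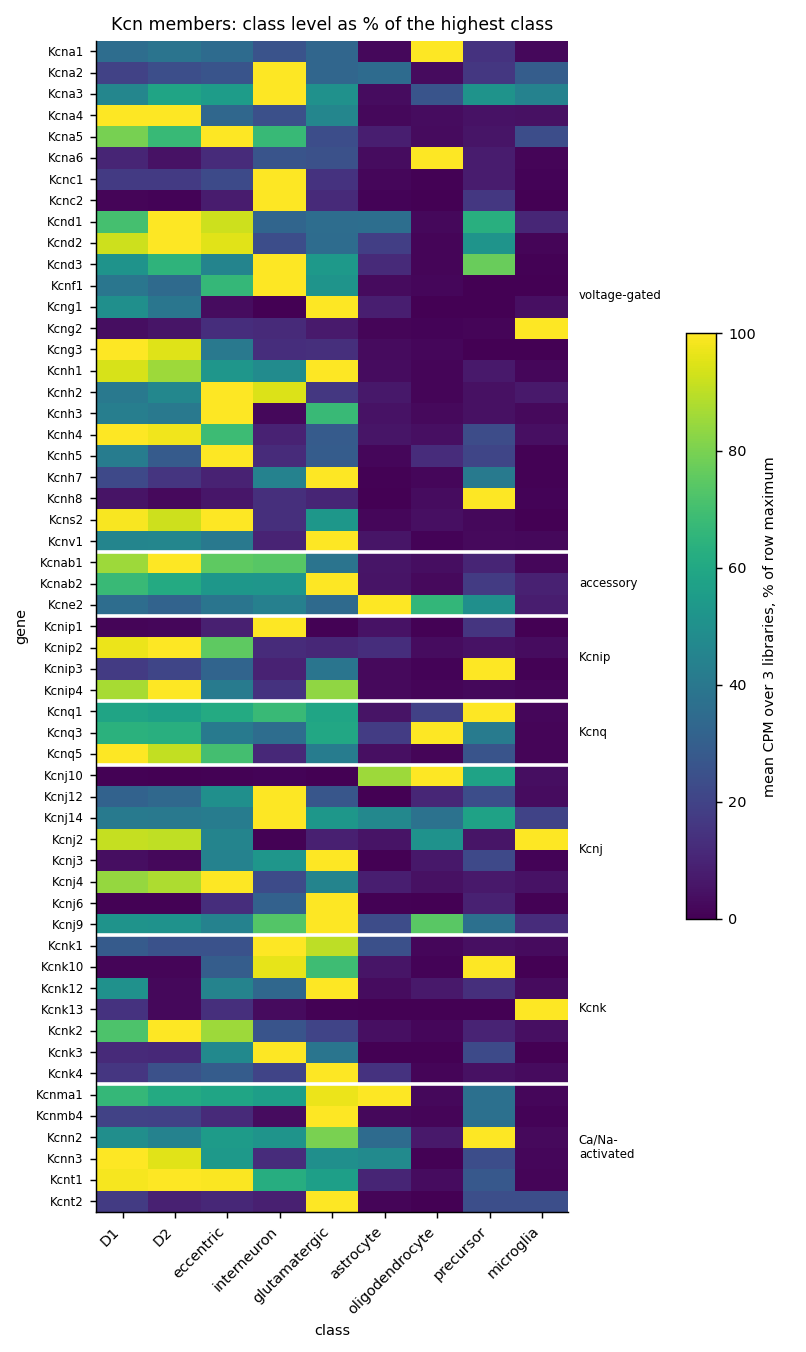
Mean level over 3 libraries of Kcn genes with at least 300 UMIs (rows, grouped by family) in 9 classes (columns), each as a percent of that gene's highest class, on a linear colour scale. Kcnc1, Kcnc2 and Kcnip1 peak in interneurons, Kcna1, Kcna6 and Kcnq3 in oligodendrocytes, and Kcnk13 and Kcng2 in microglia.

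Differences between classes were tested with edgeR's quasi-likelihood test on UMIs summed per class and library, with the library as a block and Benjamini-Hochberg adjustment over all 11408 genes tested. The 3 libraries served as replicates of a class although they come from different groups. Shifts common to a whole library are taken out by the block. All 7 classes were in a single fit, and the dispersion of a gene was estimated over all of them with information shared across genes. A p-value therefore does not measure the spread of its own class difference over the 3 pools alone. Of the 91 Kcn genes 65 passed the filter on low counts, which a gene can pass through 1 class alone. Against glia (the mean of astrocytes, oligodendrocytes, precursors and microglia), 53 of the 65 were higher in neurons (the mean of D1, D2 and interneurons), where 37.5% of all genes were, and 3 were lower, where 30.1% of all genes were. The 3 lower ones were Kcnj10 and Kcnj16, which together form an inward rectifier of glia, and Kcnc4, an A-type member of the Kcnc family. The median log2 difference was 2.31 over the 65 Kcn genes and 0.03 over all genes. All 4 Kcnip genes and all 7 tested genes of calcium- or sodium-activated channels were higher in neurons. Genes used as markers of medium spiny neurons were also counted in glial nuclei. The 9 genes of this list summed to 15.6%, 9.78% and 12% of their spiny level in astrocytes and 9.38%, 8.59% and 9.83% in oligodendrocytes. In precursors they summed to 12.7%, 9.44% and 10.9%, and in microglia to 5.41%, 3.95% and 5.27%. The list is not exclusive to spiny neurons: it stood at 5204, 5046 and 4935 CPM in glutamatergic neurons and 14940, 16780 and 13850 in D1 neurons. Expression by the glia and RNA carried over from neurons were not told apart. The part of either in the Kcn levels of glia was not tested.

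Between spiny neurons (the mean of D1 and D2) and GABAergic interneurons, 28 of 65 Kcn genes were higher in spiny neurons (all genes 24.1%) and 25 were higher in interneurons (all genes 24.1%). Interneurons numbered 68, 97 and 105 nuclei. The split ran through families: among the 28 tested voltage-gated genes 12 were higher in spiny neurons and 14 in interneurons.

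The A-type channel genes went in different directions. Kcnd2, which encodes the main A-type pore of dendrites, measured 2933, 3198 and 2832 in D1 neurons, 3212, 3439 and 3035 in D2 neurons and 769, 806 and 706 in interneurons. Every spiny value lay above every interneuron value, and the log2 difference was 2.19 ± 0.20 (SE; edgeR, adjusted p = 4.02e-13). Its relative Kcnd3 was the other way round, at 157, 146 and 141 in D1 neurons, 176, 189.6 and 197 in D2 neurons and 300.3, 266 and 297 in interneurons. That difference was -0.62 ± 0.10 (edgeR, adjusted p = 1.15e-06). Kcna4, which encodes an inactivating axonal channel, stood at 213 in D1, 213 in D2 and 52.4 in interneurons as means of 3 libraries (edgeR, adjusted p = 3.00e-18).

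The Kcnip genes encode calcium-binding partners of the Kcnd pores, and they too went in both directions. Kcnip1 was at 1109, 1354 and 1369 in interneurons and at 19.4, 19.1 and 18.2 in D1 neurons. The log2 difference was -5.77 ± 0.09 (edgeR, adjusted p = 8.50e-43). Kcnip2 was at 92.1, 68.9 and 66.3 in interneurons against 595, 619 and 602 in D1 and 647, 642 and 580.0 in D2 neurons, a log2 difference of 3.22 ± 0.13 (edgeR, adjusted p = 3.93e-26). The groups did not overlap for either gene. Kcnip4 measured 6685, 5824 and 7135 in D1 neurons, 7540.5, 6792 and 8318 in D2 neurons and 1548, 1449.9 and 352 in interneurons (edgeR, adjusted p = 2.55e-11). The low interneuron value of Kcnip4 in the urolithin A library went with a change in which interneurons were sampled. Of the 3 interneuron clusters, cluster 25, led by Vip and Pnoc, had Kcnip4 at 4204 CPM over all libraries, and clusters 18 and 20 had 88.5 and 417. Cluster 25 made up 26.5%, 27.8% and 4.76% of interneuron nuclei, and its part in the difference was not tested. Kcnip1 was uneven as well, at 2258, 265.2 and 587.9 CPM in clusters 18, 20 and 25 pooled over libraries, each above its D1 level.

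Genes of the Kcnc family, whose fast channels allow high firing rates, were higher in interneurons. Kcnc2 measured 1081, 1394 and 684 in interneurons and 15.5, 11.1 and 19.5 in D1 neurons, with no overlap, a log2 difference of -6.19 ± 0.14 (edgeR, adjusted p = 2.55e-36). Kcnc1 measured 482, 692 and 484 and 84.3, 104 and 94.3, a difference of -2.39 ± 0.09 (edgeR, adjusted p = 1.70e-27). Within interneurons Kcnc1 was not uniform. Pooled over libraries it stood at 725 CPM in cluster 18, led by Pthlh and Kit, at 806 in cluster 25, and at 145 in cluster 20, led by Npy, Sst and Nos1. Kcnc2 followed the same split, at 948, 2406 and 289 CPM. Kcns3, a silent subunit that modifies delayed rectifier channels, measured 24.1, 67.7 and 40.8 in interneurons and 0.593 in D1 neurons as a mean. Kcnmb2, which encodes an inactivating accessory subunit of the large-conductance calcium-activated channel, measured 43.8, 45.1 and 42.1 in interneurons and 0.798 in D1 neurons.

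Among the other voltage-gated genes, Kcna2, which forms axonal channels with Kcna1, measured 85.5, 119.9 and 71.4 in interneurons and had means of 18.2 and 22.1 in D1 and D2 neurons (log2 difference -2.04 ± 0.17, edgeR, adjusted p = 7.33e-15). Kcnh1, of the ether-a-go-go family, measured 291, 278 and 254 in D1 neurons and 129, 149.6 and 141 in interneurons (difference 1.04 ± 0.11, edgeR, adjusted p = 7.59e-11). The silent subunit gene Kcnv1 measured 44.9, 42.9 and 47.5 in D1 neurons and 21.9, 2.38 and 5.10 in interneurons (difference 2.68 ± 0.33, edgeR, adjusted p = 1.31e-09). So the silent subunits also divided, with Kcnv1 and Kcns2 on the spiny side and Kcns3 and Kcnf1 on the interneuron side. Kcnab1, the accessory subunit of the Kcna channels, had means of 1519 in D1, 1783 in D2 and 1317 in interneurons, and its difference of 0.47 ± 0.11 passed the test (edgeR, adjusted p = 4.17e-04) but turned with the largest cluster of each class alone (-0.20).

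The inward rectifier genes went in both directions. Kcnj2 and Kcnj4, strong rectifiers, were higher in spiny neurons. Kcnj2 measured 46.6, 63.7 and 56.4 in D1 neurons, 48.7, 57.3 and 59.2 in D2 neurons and 0, 1.19 and 0 in interneurons, where a single UMI was counted. Kcnj4 measured 103, 95.2 and 106 in D1 neurons and 21.9, 29.7 and 30.6 in interneurons, a log2 difference of 2.02 ± 0.19 (edgeR, adjusted p = 3.94e-13). Their relatives Kcnj12 and Kcnj14 were higher in interneurons, at means of 49.1 and 81.8 CPM against 15.5 and 33.8 in D1 neurons (edgeR, adjusted p = 7.70e-08 and 3.92e-08). Of the G protein-gated rectifiers, which inhibitory receptors open, 2 genes were lower in spiny neurons. Kcnj3 measured 11.5, 16.97 and 11.2 in D1 neurons and 142, 268 and 141 in interneurons (log2 difference -4.04 ± 0.16, edgeR, adjusted p = 2.30e-26). Pooled over libraries, Kcnj3 stood at 244 and 326.9 CPM in interneuron clusters 18 and 25. In the Npy and Sst cluster it stood at 15.98 on 10 UMIs, within the range of its D1 values. Kcnj6 measured 1.70, 1.91 and 1.33 in D1 neurons and 65.8, 145 and 71.4 in interneurons (difference -5.70 ± 0.25, edgeR, adjusted p = 4.57e-25). Another such gene, Kcnj9, had means of 35.4 in D1 neurons and 50.6 in interneurons, a difference that did not pass the test (edgeR, adjusted p = 0.177). The remaining one, Kcnj5, had 112 UMIs over all nuclei, of which 85 lay in microglia. In eccentric spiny neurons Kcnj3 was at 147, 175 and 142 CPM, above all D1 and D2 values. Clusters 7 and 14 of that class had Kcnj3 means of 100.6 and 351.3 CPM.

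Kcnq3 and Kcnq5 encode subunits of the slow M current, which holds neurons below threshold. Kcnq5 measured 4099, 4291 and 4160.0 in D1 neurons, 3716, 3952 and 3751 in D2 neurons and 577, 543 and 331 in interneurons, a log2 difference of 3.26 ± 0.27 (edgeR, adjusted p = 1.63e-14). Pooled over libraries, Kcnq5 stood at 607.1, 62.31 and 735.5 CPM in interneuron clusters 18, 20 and 25, each below its D1 and D2 values. Kcnq3 was also higher in spiny neurons, at means of 634 and 355 CPM in D1 neurons and interneurons (edgeR, adjusted p = 3.02e-12).

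Among the tandem-pore leak channel genes, Kcnk2, which encodes a mechanically and lipid-gated channel, measured 314, 382 and 324 in D1 neurons, 454, 512 and 445 in D2 neurons and 116, 80.8 and 169.5 in interneurons (log2 difference 1.88 ± 0.15, edgeR, adjusted p = 3.28e-15). Kcnk1 ran the other way, at 32.6, 35.3 and 45.4 in D1 neurons and 129, 128 and 136 in interneurons (difference -1.73 ± 0.13, edgeR, adjusted p = 1.76e-16). Kcnk10, a close relative of Kcnk2, measured 63.6, 38 and 61.2 in interneurons and a mean of 0.799 in D1 neurons. Kcnk3, an acid-sensitive leak channel, was at 35.1, 34.4 and 28.04 in interneurons and at 3.82 on average in D1 neurons (difference -2.93 ± 0.28, edgeR, adjusted p = 7.32e-12). Kcnk10 lay in 1 interneuron cluster for the most part, at 153 CPM in the Npy and Sst cluster and at 0 and 29.5 in the others, and with the largest cluster of each class alone its sign turned (log2 difference 2.56, edgeR, adjusted p = 0.499).

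Of the calcium- and sodium-activated channel genes, Kcnn3, a small-conductance channel that shapes the afterhyperpolarization, measured 127, 140.2 and 142 in D1 neurons and 26.3, 5.94 and 20.4 in interneurons (log2 difference 3.23 ± 0.20, edgeR, adjusted p = 1.74e-19). Its relative Kcnn2 had means of 132 and 138 CPM and did not pass the test (difference 0.02 ± 0.11, edgeR, adjusted p = 0.882). Kcnma1, the pore of the large-conductance channel, had means of 763 and 642 CPM, a small difference of 0.36 ± 0.10 (edgeR, adjusted p = 0.00193). Of the 26 tested genes of a separate list of channel partners and potassium handling, 6 were higher in spiny neurons (all genes 24.1%) and 16 in interneurons (all genes 24.1%). Kcnt1, a sodium-activated channel, measured 209.6, 197 and 189.8 in D1 neurons and 114, 127 and 135 in interneurons (difference 0.80 ± 0.11, edgeR, adjusted p = 1.94e-08).

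D1 and D2 neurons differed in fewer of these genes than spiny neurons and interneurons did. The share called in this fit was still above that of all genes in both directions. Of 65 Kcn genes 8 were higher in D1 neurons, where 3.35% of all genes were, and 4 were higher in D2 neurons, where 2.4% were. The median log2 difference was 0.01 over the Kcn genes and 0.00 over all genes. Both genes of the halothane-inhibited leak channels were higher in D1. Kcnk13 measured 73.8, 71.7 and 55.6 in D1 neurons and 10.2, 9.11 and 10.2 in D2 neurons, with no overlap, a log2 difference of 2.73 ± 0.14 (edgeR, adjusted p = 1.37e-21). Kcnk12 measured 10.6, 12.8 and 12.9 in D1 neurons and 1.16, 0 and 0.285 in D2 neurons, where 5 UMIs were counted in all (edgeR, adjusted p = 4.64e-10). Kcna6, a delayed rectifier of axons, measured 50.4, 42.5 and 53.1 and 27.6, 19.8 and 20.2, again without overlap, a difference of 1.09 ± 0.14 (edgeR, adjusted p = 3.35e-08).

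The remaining D1-higher genes were Kcnt2, a sodium-activated channel, Kcnj3 and 3 genes of the Kcnh family. Kcnt2 had means of 81.8 and 43.4 CPM in D1 and D2 neurons and a log2 difference of 0.89 ± 0.15 (edgeR, adjusted p = 2.47e-05). Kcnh5 differed by 0.52 ± 0.10 (edgeR, adjusted p = 2.29e-04) and Kcnh7 by 0.49 ± 0.12 (edgeR, adjusted p = 0.00501). Kcnh8 and Kcnj3 had adjusted p values of 0.0157 and 0.0418 in the same edgeR test. The genes higher in D2 neurons were Kcnk2 (-0.50 ± 0.11), its relative Kcnk4 (-0.72 ± 0.21), and the A-type genes Kcnd1 (-0.54 ± 0.15) and Kcnd3 (-0.37 ± 0.10), given as log2 D1 over D2 with edgeR adjusted p values of 0.00164, 0.0245, 0.023 and 0.00773.

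Much of this rested on which clusters made up each class. D1 neurons held cluster 3, led by Ebf1 and Pdyn, and cluster 4, led by Nmb and Drd3, and D2 neurons held cluster 2, led by Adora2a and Drd2, and cluster 11, led by Calcr. Kcnt2 measured 31.2, 17.97 and 11.03 in cluster 3 and 153, 155 and 124 in cluster 4, so the gap between the D1 clusters was wider than that between D1 and D2. Kcnh7 was the reverse, at 454, 358 and 440.0 in cluster 3 and 154, 149 and 168 in cluster 4. Kcnk2 measured 180.4, 247 and 186 in cluster 3, 435, 496 and 518 in cluster 4, 488, 540.3 and 499 in cluster 2 and 141, 212 and 149.6 in cluster 11, so that 1 cluster of each class was high and 1 was low. Kcnk7, a silent relative of the leak channels that was left out of the test for its low counts, split the clusters in the same way as Kcnk2 but inverted, at 8.91, 9.20 and 14.9 in cluster 3, 2.04, 1.40 and 1.83 in cluster 4, 1.93, 2.28 and 4.37 in cluster 2 and 23.5, 24.3 and 16.6 in cluster 11, and it was singled out after its values were seen. Kcnk13 and Kcna6, in contrast, were higher in both D1 clusters than in both D2 clusters in every library. With the largest cluster of each class alone, Kcnt2, Kcnj3 and Kcnh5 turned to the D2 side (log2 differences of -1.32, -2.12 and -0.40). Of the 12 calls, Kcna6 and Kcnk13 passed in all 8 alternative fits, and Kcnk12 was not tested in 4 of them because too few UMIs were left. DESeq2 called 5 genes higher and 0 lower in D1 neurons (3 lower at an unadjusted p under 0.05), edgeR without the high anxiety library 5 and 2, and edgeR without the urolithin A library 5 and 1.

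**Figure D2:**
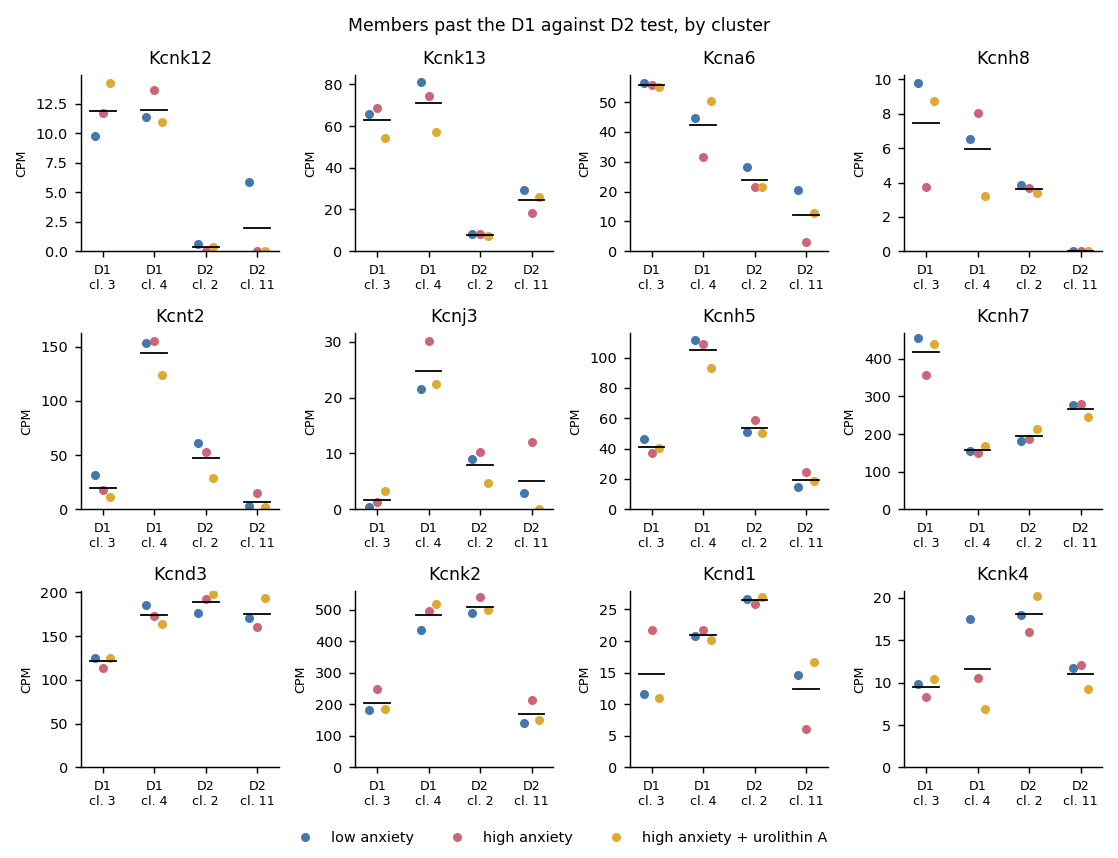
CPM (vertical axis, linear from 0) of the 12 Kcn genes past the D1 against D2 test in the 2 D1 clusters and the 2 D2 clusters (horizontal axis). Points are the 3 libraries and bars their mean. Kcnk13 and Kcna6 separate both D1 clusters from both D2 clusters, while Kcnt2 is high in cluster 4 only among the D1 clusters.

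Other neurons had patterns of their own, which are described without a test because they were not in the fit. Cholinergic interneurons, with 15, 18 and 26 nuclei, held Kcnt2 at 1015, 907 and 1086 CPM, above its values in all other classes. They also held Kcnk9, an acid-sensitive leak channel, at 105, 74.2 and 124, against 20.7 on average in glutamatergic neurons and 0.608 in D1 neurons. Kcnj12 was at 105, 132 and 88.9 in these cells. Glutamatergic neurons held the G protein-gated genes Kcnj3 and Kcnj6 at 301, 361 and 389 and 357, 306 and 248 CPM. They held Kcnh7, of the ether-a-go-go-related family, at 1367, 1352 and 1219.9, and Kcnmb4, the neuronal accessory subunit of the large-conductance channel, at 157, 141 and 148 against 29.6 in D1 neurons. Eccentric spiny neurons had Kcnh5 at 206, 160.1 and 156 and Kcnh3 at 83.9, 67.9 and 55.4, against 73.1 and 29.6 on average in D1 neurons. This class was mixed as well. Cluster 7, the largest of the class, had Kcnh5 at 97.52, 110.2 and 108.1, and cluster 14 had it at 282.4, 331.7 and 298.1. D1 cluster 4, described above, had Kcnh5 at 111.6, 109.1 and 93.28. Cluster 17 gave 102, 11 and 16 nuclei to the eccentric class, so the make-up of the class differed between libraries. The shared spiny markers had a mean log2 difference from all other nuclei of 0.335 in cluster 7. It was -1.323 in cluster 14 and -0.989 in cluster 17, so the name spiny is uncertain for these clusters.

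In astrocytes 18 of 65 Kcn genes were higher than in the mean of the other 3 glial classes (all genes 24.3%) and 12 were lower (all genes 17.1%). Kcnma1 measured 1099, 1218 and 1129.5 in astrocytes, 433, 385 and 448 in precursors and 35.3, 14.1 and 18.2 in oligodendrocytes, a log2 difference from other glia of 4.35 ± 0.13 (edgeR, adjusted p = 5.28e-32). Its astrocyte level lay above its level in D1 neurons, 760.0, 754 and 776, in every library. Kcnj10, the potassium uptake channel of glia, measured 234, 252 and 244 in astrocytes, 291, 294 and 272 in oligodendrocytes, 142, 185 and 171 in precursors and 6.06, 12.01 and 12.3 in microglia. Its partner Kcnj16 was at 55.05, 22.5 and 32.4 in astrocytes and 50.6, 47.3 and 44.5 in precursors, against 1.44, 0 and 0.466 in oligodendrocytes. Kcng4, a silent subunit, measured 29.5, 40 and 23.5 in astrocytes and had means of 0.825 and 0.657 in precursors and D1 neurons. Kcnip2, which passed the astrocyte test as well, had 118, 60 and 67.7, against 595, 619 and 602 in D1 neurons.

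In oligodendrocytes 11 of 65 were higher than in other glia (all genes 29.7%) and 26 were lower (all genes 25.6%). The higher ones included 2 axonal delayed rectifier genes that lie beside each other in the genome, Kcna1 and Kcna6 (neighbours in the RefSeq annotation of assembly GRCr8). Kcna1 measured 870.0, 987 and 1018 in oligodendrocytes, 119, 146 and 153 in precursors and 294, 352 and 380.2 in D1 neurons (difference from other glia 4.73 ± 0.12, edgeR, adjusted p = 2.63e-35). Kcna6 measured 489, 468 and 458, 40.5, 42.8 and 22.3 and 50.4, 42.5 and 53.1 in the same classes (difference 5.00 ± 0.14, edgeR, adjusted p = 1.33e-32). Both were higher in oligodendrocytes than in any neuronal class in every library. So was Kcnq3, a subunit of the M current, at 976, 1005 and 995 against 693, 621 and 589 in D1 neurons (difference from other glia 3.38 ± 0.11, edgeR, adjusted p = 1.29e-30). Its usual partner Kcnq5 was at 88.5, 46.6 and 26.1 in oligodendrocytes, far below its level in D1 neurons, 4099, 4291 and 4160.0. Kcnj9, the RefSeq neighbour of Kcnj10, had 43.2, 57.5 and 54.1 in oligodendrocytes and 15.7, 15 and 17.6 in astrocytes. Committed oligodendrocyte precursors, with 16, 36 and 27 nuclei, had Kcna1 at 196, 295 and 393, between precursors and oligodendrocytes in every library.

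Oligodendrocyte precursors carried the broadest set. There 37 of 65 Kcn genes were higher than in other glia (all genes 25.1%) and 1, Kcnj2, was lower (all genes 16.9%), and the median log2 difference was 1.56 against 0.01 over all genes. Kcnd2 measured 1847, 1686 and 1494 in precursors, 733, 477 and 588 in astrocytes and 78.4, 39.1 and 23.8 in oligodendrocytes (difference 3.84 ± 0.18, edgeR, adjusted p = 2.26e-23). Kcnip3, a Kcnd partner that is also known as a transcriptional repressor, measured 359, 286 and 262 in precursors and 58.3, 57.8 and 42.9 in D1 neurons (difference from other glia 6.27 ± 0.19, edgeR, adjusted p = 4.94e-31). It was higher there than in every neuronal class. Kcnh8, of the ether-a-go-go-like family, measured 142, 142 and 116 in precursors and a mean of 18.2 in interneurons. Kcnh7 measured 645, 509 and 468 and Kcnk10 50.6, 54.1 and 64.3 in precursors. Kcnq5 was at 1184, 1019 and 1037 in precursors, above its oligodendrocyte level in every library. Kcnn2 measured 245, 264 and 292 in precursors and 139, 140.0 and 118 in D1 neurons (difference from other glia 3.45 ± 0.16, edgeR, adjusted p = 2.43e-24).

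In microglia 10 of 65 were higher than in other glia (all genes 22.7%) and 25 were lower (all genes 27.3%). Kcnk13, a tonically open leak channel known to set the microglial resting potential, measured 458, 507 and 423 in microglia, against means of 1.33 in oligodendrocytes and 0.655 in astrocytes (difference from other glia 8.55 ± 0.20, edgeR, adjusted p = 2.69e-36). D1 and eccentric neurons came next, at 73.8, 71.7 and 55.6 and 51.5, 60.2 and 76.8. Kcng2, a silent subunit, measured 109, 138 and 110.4 in microglia and 14.1 on average in interneurons. Kcnt2 was at 118, 112 and 107 in microglia and 2.16, 1.57 and 1.40 in oligodendrocytes (difference from other glia 3.42 ± 0.34, edgeR, adjusted p = 2.17e-12). Kcnj2 was at 45.4, 76.1 and 61.3 and Kcnj5 at 54.5, 82.1 and 79.7. Kcnk6 and Kcnj15 rested on few UMIs, at 33.3, 22.02 and 18.4 and 24.2, 14.02 and 15.3 CPM, and with Kcnj5 they lost their call under DESeq2 (adjusted p = 0.241, 0.285 and 0.115). Vascular nuclei, 39, 33 and 22 in number, had Kcnj8, the pore of the vascular ATP-sensitive channel, at 151, 390.3 and 189. Kcnj8 had 54 UMIs over all nuclei. The spiny marker level of vascular nuclei in the urolithin A library was 55.8% of that of spiny neurons. Their endothelial marker list stood at 2137, 159.7 and 4922 CPM and their mural list at 1397, 2838 and 1067, so the make-up of this class differed between libraries.

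The 26 genes left out of the tests for low counts had at most 453 UMIs each over all nuclei, a count reached by Kcng1. Some of them were still found in 1 class for the most part. Of the 78 UMIs of Kcnk5 65 lay in oligodendrocytes, and of the 60 UMIs of Kcne4 44 did.

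Kcne2, an accessory subunit, was found in neurons and glia, with its highest level in astrocytes. It had means of 63.6 in D1 neurons, 77.9 in interneurons, 179 in astrocytes, 119 in oligodendrocytes, 88.98 in precursors and 14.5 in microglia. Astrocytes lay above each of these classes in every library, and microglia were lower than other glia (difference -3.06 ± 0.27, edgeR, adjusted p = 1.25e-13).

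**Figure D3:**
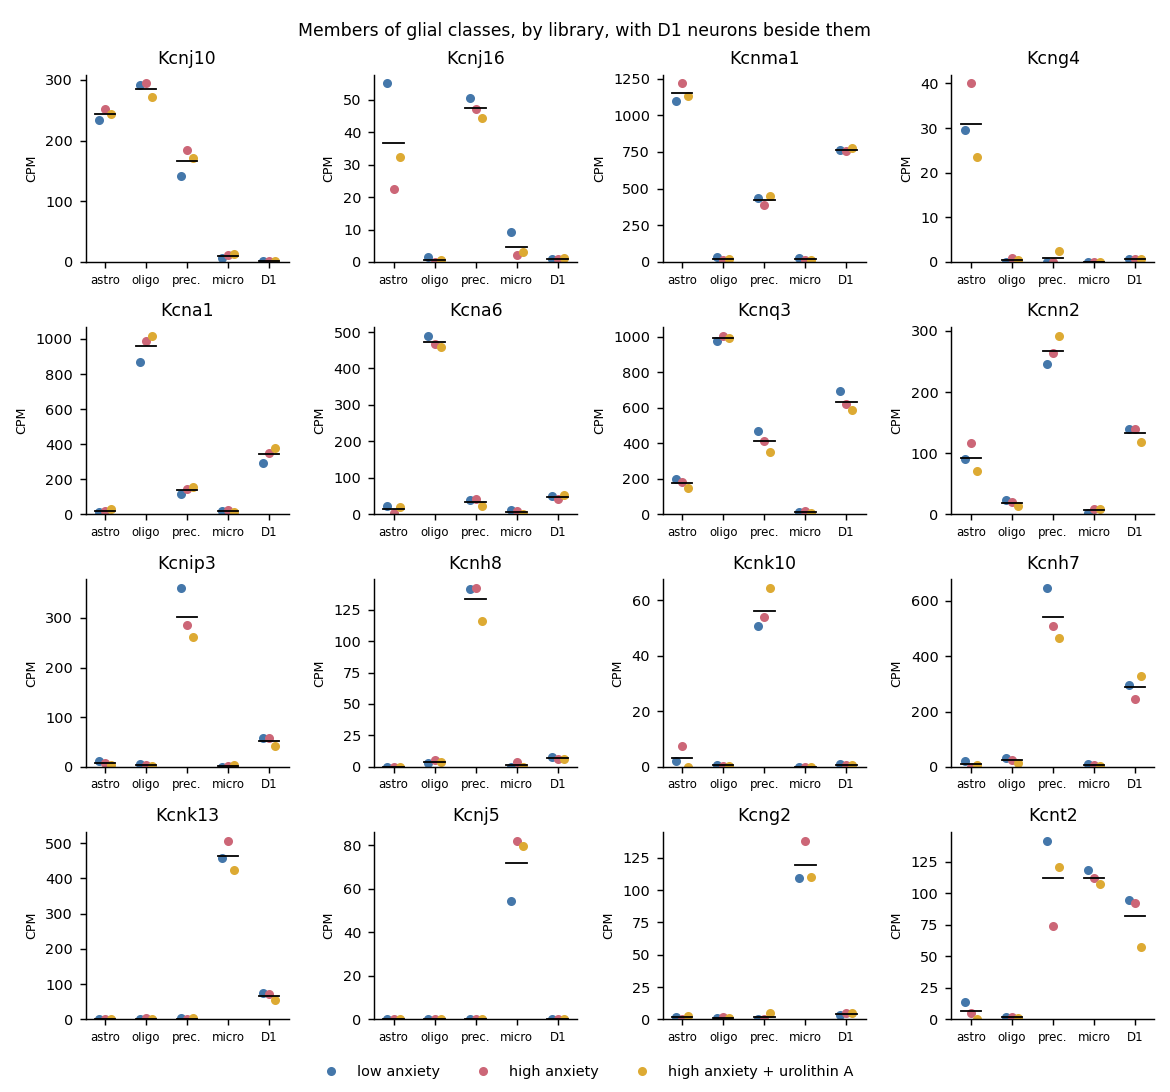
CPM (vertical axes, linear from 0) of 16 Kcn genes, chosen for their levels in glial classes, in astrocytes, oligodendrocytes, precursors, microglia and, for comparison, D1 neurons. Points are the 3 libraries and bars their mean. Kcnj16 is near 0 in oligodendrocytes while Kcnj10 is high there, and Kcnk13, Kcng2 and Kcnj5 stand out in microglia.

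With 1 library per group, differences between groups could not be tested. Ratios of class CPM are given with exact conditional 95% intervals that cover counting error only. A gene was measured where it had at least 300 UMIs over the 3 libraries of the class, and called where the log2 ratio was at least 0.32 from 0 in either direction. The 3 comparisons share libraries with each other, so a low or high library enters 2 of them. Counts of classes or clusters that go the same way also come from these 3 libraries, and classes and clusters share nuclei. Such counts are therefore not repeats of a group difference, and they were not made over all genes. Median UMIs per nucleus in D1 neurons were 6026.5, 7682 and 6672, and in D2 neurons 5718, 7292.5 and 6392.

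For high over low anxiety, 4 of 39 measured Kcn genes were called higher in D1 neurons (all genes 6.91%) and 1 lower (all genes 10.7%), and 3 of 35 were called higher in D2 neurons (all genes 6.77%) and 1 lower (all genes 9.7%). The median log2 ratio was -0.01 in D1 neurons and 0.08 in D2 neurons, against -0.01 and 0.00 over all genes, so the median Kcn gene lay close to the median gene in both. Kcna4 measured 171, 228 and 241 in D1 neurons and 169, 249 and 222 in D2 neurons, and the low anxiety library was the lowest in both. The log2 ratio of high over low anxiety was 0.42 (95% interval 0.29 to 0.55) in D1 and 0.55 (95% interval 0.40 to 0.70) in D2. Kcna1 moved the same way below the limit for a call, at 294, 352 and 380.2 in D1 neurons with a ratio of 0.26 (95% interval 0.16 to 0.37), and it was higher in high than in low anxiety in 8 of 8 classes with at least 60 UMIs of it. Kcnj2 measured 46.6, 63.7 and 56.4 in D1 neurons (ratio 0.45, 95% interval 0.20 to 0.70) and Kcnj14 27.7, 37 and 36.6 (ratio 0.42, 95% interval 0.09 to 0.75). In D2 neurons Kcnj9 measured 26.7, 37.5 and 41.8 (ratio 0.49, 95% interval 0.10 to 0.88) and Kcnv1, a silent subunit, 53.1, 38.02 and 45.5 (ratio -0.48, 95% interval -0.81 to -0.16). The ratio of Kcna5 in D1 neurons, -0.34 (95% interval -0.74 to 0.07), has an interval that includes 0.

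For urolithin A over high anxiety, 2 of 39 were called higher in D1 neurons (all genes 7.78%) and 4 lower (all genes 3.92%), and 3 of 35 were called higher in D2 neurons (all genes 9.53%) and 1 lower (all genes 4.12%). Kcnt2 was lower in both. It measured 94.9, 92.7 and 57.7 in D1 neurons (ratio -0.68, 95% interval -0.90 to -0.47) and 55.7, 50 and 24.5 in D2 neurons (ratio -1.03, 95% interval -1.41 to -0.66), and the urolithin A library was the lowest of the 3 in each. The share of D1 nuclei in cluster 4, where Kcnt2 is high, was 50.1%, 49.9% and 38.9% in the 3 libraries. Within cluster 3 Kcnt2 was at 31.2, 17.97 and 11.03, within cluster 4 at 153, 155 and 124 and within cluster 2 at 61.5, 53.3 and 28.6. Urolithin A had the lowest value in each of these clusters. Cluster 11 made up 12.03%, 9.45% and 16.7% of D2 nuclei, and the part of either cluster share in the Kcnt2 ratios was not tested. In 7 of 8 clusters of D1, D2, eccentric and unnamed neurons with at least 40 nuclei in every library, Kcnt2 was lower in urolithin A than in high anxiety. Against low anxiety it was lower in 5 of these 8 clusters and higher in 3. Of 8 classes with at least 60 UMIs of Kcnt2, urolithin A was above high anxiety in 3 and above low anxiety in 3. In microglia, at 118, 112 and 107, and in cholinergic interneurons, at 1015, 907 and 1086, the values of Kcnt2 lay closer together.

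Kcnh4, of the ether-a-go-go-like family, measured 67.02, 65.99 and 44.6 in D1 neurons (ratio -0.57, 95% interval -0.81 to -0.32) and 60.9, 62.2 and 50.7 in D2 neurons, where it was not called, and it was lower in urolithin A than in high anxiety in 7 of 8 clusters. Kcnip3 measured 58.3, 57.8 and 42.9 in D1 neurons (ratio -0.43, 95% interval -0.68 to -0.18), and Kcnk13 73.8, 71.7 and 55.6 (ratio -0.37, 95% interval -0.59 to -0.14). Within cluster 3 Kcnip3 was at 35.63, 39.29 and 34.07, and within cluster 4 at 79.02, 73.31 and 55.33. Kcnh7 was higher in urolithin A, at 298, 244 and 327 in D1 neurons (ratio 0.42, 95% interval 0.32 to 0.53), with cluster 3, where Kcnh7 is high, at 49.9%, 50.1% and 61.1% of D1 nuclei. It was at 454.3, 357.8 and 440.0 within cluster 3 and at 154.4, 148.7 and 167.8 within cluster 4. The part of the cluster shares in the Kcnip3 and Kcnh7 ratios was not tested. Kcnk1 measured 32.6, 35.3 and 45.4 in D1 neurons (ratio 0.36, 95% interval 0.08 to 0.65) and 33.4, 27.9 and 38.1 in D2 neurons (ratio 0.45, 95% interval 0.08 to 0.83), and it was higher in urolithin A than in high anxiety in 8 of 8 clusters. Of the abundant A-type genes, Kcnd2 had a ratio of -0.18 (95% interval -0.21 to -0.14) and Kcnip4 one of 0.29 (95% interval 0.27 to 0.31) in D1 neurons, both below the limit for a call with intervals that leave out 0. The D1 clusters went opposite ways for Kcnip4, at 9522, 7891 and 9496 in cluster 3 and 4091, 4090.0 and 3808 in cluster 4, and it was higher in urolithin A than in high anxiety in 3 of 8 clusters. The summed spiny marker list in D1 neurons itself stood at 14940, 16780 and 13850 CPM, lowest in urolithin A. The astrocyte marker list in D1 neurons stood at 579.1, 672.7 and 503 CPM, also lowest there, and the part of either list in these ratios was not tested.

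**Figure D4:**
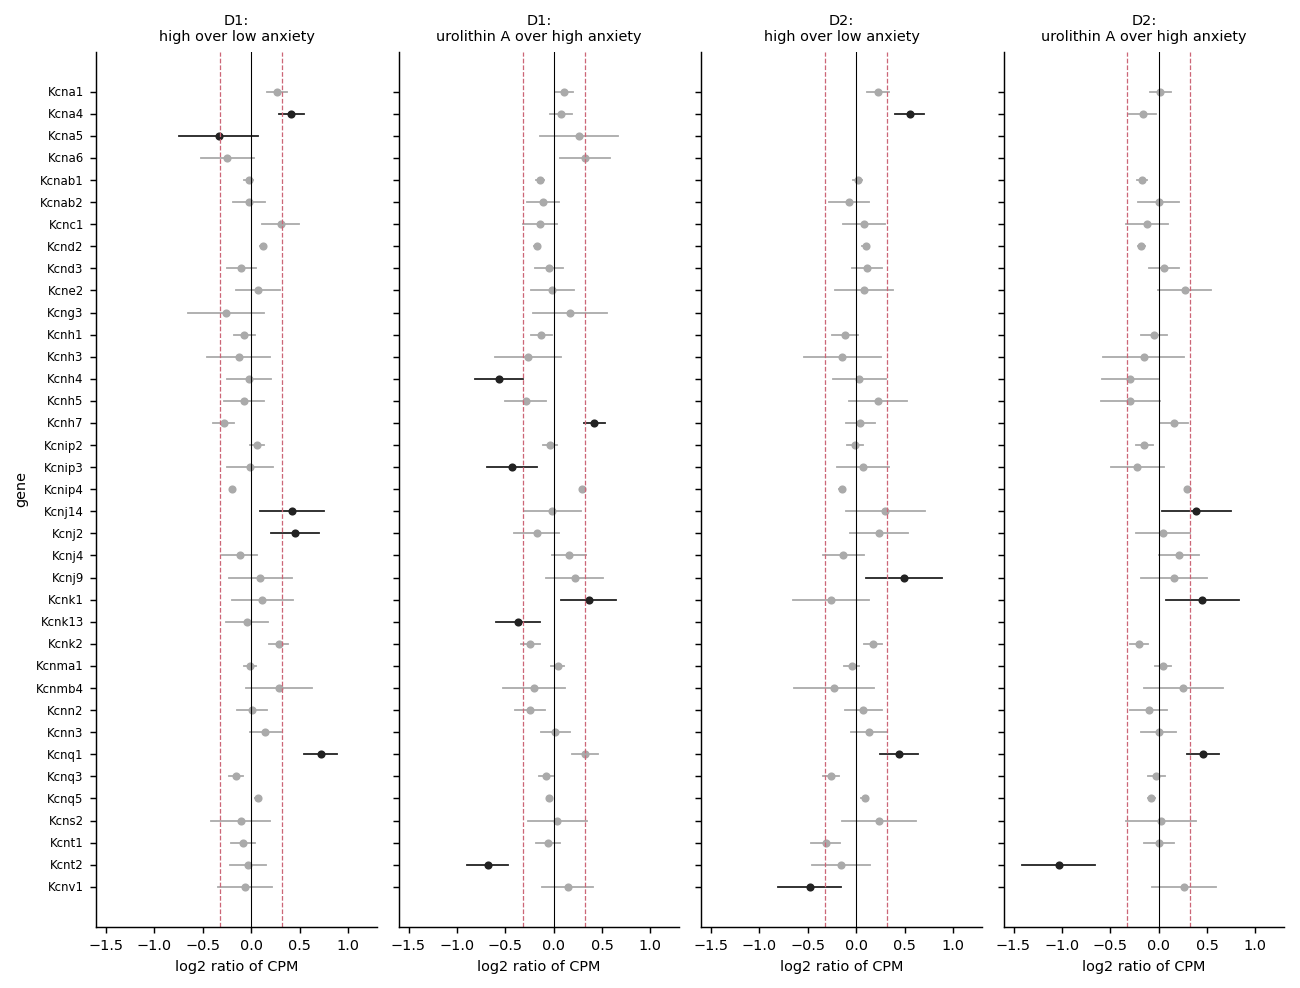
Log2 ratios of CPM (horizontal axis) of measured Kcn genes (rows) in D1 and D2 neurons for high over low anxiety and for urolithin A over high anxiety, with 95% counting intervals as lines. Dashed lines mark the limit for a call, 0.32 from 0, and black points are genes past it. Most genes lie between the dashed lines, and Kcnt2 lies furthest to the left in both urolithin A panels.

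Kcnq1 had the widest spread between groups of the measured Kcn genes in D1 neurons. Its channel is best known from heart and epithelia. It measured 96.4, 158 and 198 in D1 neurons, 104, 142 and 195 in D2 neurons and 95.1, 154 and 224 in eccentric neurons, lowest in low anxiety and highest in urolithin A in all 3. The ratio of high over low anxiety was 0.72 (95% interval 0.55 to 0.89) in D1 and 0.44 (95% interval 0.25 to 0.64) in D2 neurons. That of urolithin A over high anxiety was 0.32 (95% interval 0.19 to 0.45) in D1 neurons, just under the limit for a call, and 0.46 (95% interval 0.30 to 0.63) in D2 neurons. Outside spiny neurons it measured 103, 209 and 214 in interneurons, 162, 277 and 336 in precursors, 38.9, 41.1 and 69.03 in oligodendrocytes and 70.95, 229 and 156 in glutamatergic neurons. Urolithin A was above low anxiety in 9 of 9 classes with at least 60 UMIs of Kcnq1 and in 8 of 8 clusters, while glutamatergic neurons were highest in high anxiety and cholinergic interneurons, at 170.2, 98.97 and 263, were lowest there. The Kcnq1 locus is known to hold an antisense transcript, Kcnq1ot1, expressed from the paternal copy. No source used here says whether the counting used strand, and reads of the sense and the antisense transcript cannot be told apart.

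**Figure D5:**
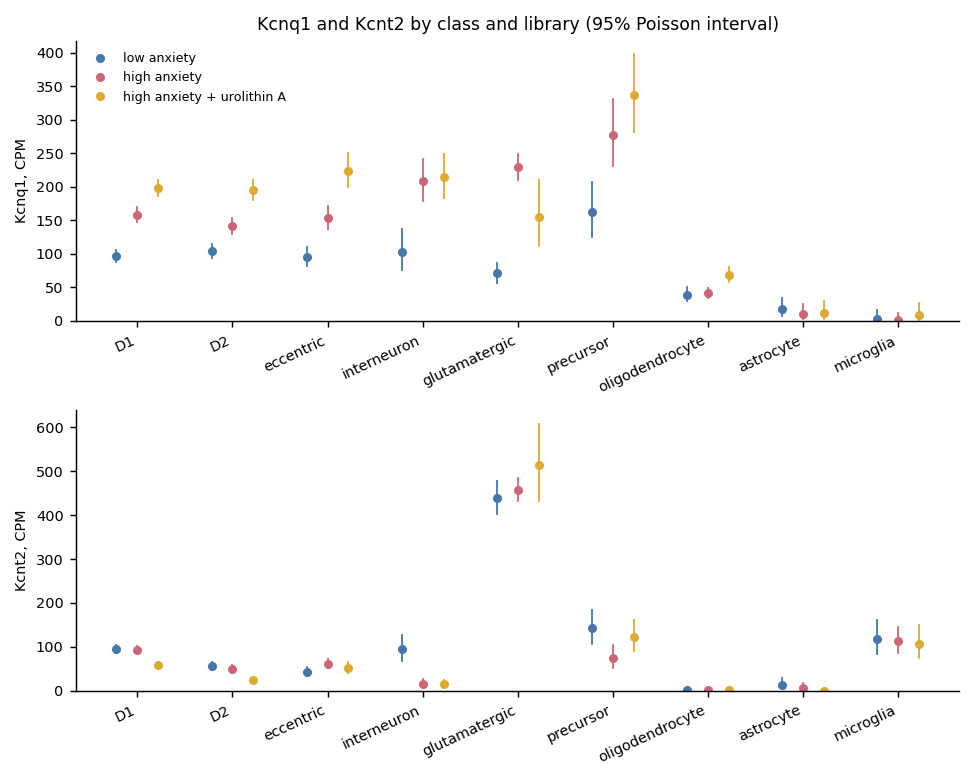
CPM (vertical axes, linear from 0) of Kcnq1 (top) and Kcnt2 (bottom) in 9 classes (horizontal axis), by library, with exact 95% Poisson intervals for counting error. Kcnq1 is lowest in low anxiety in each neuronal class shown and in precursors, and Kcnt2 is lowest in urolithin A in D1 and D2 neurons and overlaps between libraries in microglia.

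For urolithin A over low anxiety, 5 of 39 Kcn genes were called higher in D1 neurons (all genes 8.37%) and 6 lower (all genes 7.31%), and 5 of 35 were called higher in D2 neurons (all genes 10.5%) and 1 lower (all genes 6.62%). Kcnq1 and Kcna4 were the genes called higher in both, together with Kcnj14, with ratios of 1.04, 0.49 and 0.41 in D1 neurons. Kcnt2 was the gene called lower in both, at -0.72 and -1.19. With the largest cluster of each class alone, D1 neurons had 6 called higher and 1 lower of 30 measured, and the share of D1 nuclei in cluster 4 fell from 50.1% in low anxiety to 38.9% in urolithin A. The lower genes of D1 neurons, all clusters together, also held 3 of the Kcnh family, Kcnh3, Kcnh4 and Kcnh5, at -0.39, -0.59 and -0.37.

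Few Kcn genes were measured in glia: 3 in astrocytes, 9 in oligodendrocytes, 8 in precursors and 1 in microglia. In astrocytes Kcnd2 measured 733, 477 and 588, and 1 of 3 genes was called lower in high than in low anxiety (all genes 12.3%; Kcnd2 ratio -0.62, 95% interval -0.88 to -0.36) and 0 higher (all genes 12.8%). The spiny marker share of astrocytes was also highest in low anxiety, at 15.6%, 9.78% and 12%, and its part in the Kcnd2 value was not tested. For urolithin A 0 of the 3 were called over high anxiety (all genes 10.1% higher and 8.74% lower) or over low anxiety (all genes 9.02% and 9.57%). The uptake channel gene Kcnj10 measured 234, 252 and 244 in astrocytes, with a ratio of 0.11 (95% interval -0.29 to 0.50) for high over low anxiety and -0.05 (95% interval -0.49 to 0.38) for urolithin A over high anxiety, both with wide intervals that include 0. In oligodendrocytes 1 of 9 was called higher in high over low anxiety (all genes 9.69%), Kcnj9, and 1 lower (all genes 6.18%), Kcnip4. The ratio of Kcnj9, 0.41 (95% interval -0.03 to 0.87), has an interval that includes 0. Kcnip4 measured 174, 89.2 and 82.6 there, against 6685, 5824 and 7135 in D1 neurons. The part of RNA from other cells in this ratio was not tested. For urolithin A over high anxiety 1 of 9 was called higher in oligodendrocytes, Kcnq1 (all genes 2.96%), with a ratio of 0.75 (95% interval 0.38 to 1.12), and 0 lower (all genes 3.68%). Against low anxiety, urolithin A had 2 called higher in oligodendrocytes, Kcnq1 and Kcnj9 (all genes 8.59%), and 1 lower, Kcnip4 (all genes 5.14%), and the interval of Kcnj9 again includes 0. The oligodendrocyte genes Kcna1, Kcna6 and Kcnq3 had ratios of urolithin A over high anxiety of 0.04, -0.03 and -0.01, with intervals that include 0.

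In precursors 1 of 8, Kcnq1, was called higher in high over low anxiety (all genes 8.88%), with a ratio of 0.78 (95% interval 0.33 to 1.23), and 2 lower (all genes 12%), Kcnh7 and Kcnip3. Kcnh7 measured 645, 509 and 468 and Kcnip3 359, 286 and 262, each with its highest value in low anxiety. The interval of Kcnip3, -0.33 (95% interval -0.69 to 0.03), includes 0. Urolithin A over high anxiety gave 0 calls among the 8 in either direction (all genes 8.88% higher and 7.1% lower). Urolithin A over low anxiety gave 1 higher, Kcnq1 (all genes 9.97%; ratio 1.05, 95% interval 0.62 to 1.51), and 3 lower, Kcnh7, Kcnip3 and Kcnq3 (all genes 14.3%). Microglial Kcnk13 measured 458, 507 and 423, with ratios of 0.15 (95% interval -0.15 to 0.45) for high over low anxiety and -0.26 (95% interval -0.57 to 0.04) for urolithin A over high anxiety, neither of them called. As 1 gene was measured there, the member counts were 0 of 1 throughout, beside 14.7% of all genes higher and 11.4% lower for high over low anxiety, 3.92% and 9.73% for urolithin A over high anxiety, and 10.2% and 7.51% for urolithin A over low anxiety.

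The list of 32 genes of channel partners and potassium handling was counted beside the members. In neurons against glia 17 of its 26 tested genes were higher (all genes 37.5%) and 8 were lower (all genes 30.1%), the lower ones including the sodium pump subunits Atp1b2 and Atp1b3 and the water channel Aqp4. Between D1 and D2 neurons the chloride importer gene Slc12a2 was higher in D1 (log2 difference 0.73 ± 0.12, edgeR, adjusted p = 1.82e-05). Between groups, D1 neurons had 2 of 16 measured partner genes called higher in high over low anxiety, Hcn2 and Atp1b3 (all genes 6.91%), and 0 lower (all genes 10.7%). In urolithin A over high anxiety 1 of 16 was called lower, Slc12a2 (all genes 3.92%), and 1 higher (all genes 7.78%). The ratio of Slc12a2 was -0.40 (95% interval -0.62 to -0.20).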

How the data were processed

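Nuclei of 3 libraries were measured, 1 per group. The authors made the deposited UMI counts with Cell Ranger 7.1.0 on mRatBN 7.2, per the submitters' processing notes; no source used here says whether strand was used or free RNA removed. The libraries held 3619, 4066 and 3739 barcodes and 16728049, 22095390 and 19162530 UMIs. Barcodes under 500 genes or over 5% mitochondrial UMIs were dropped, 97, 116 and 99 doublets were removed at 0.8% per 1000 nuclei, and 27 clusters were made (scanpy 1.11.5, Leiden resolution 1, 2000 variable genes without Kcn and partner genes, 30 principal components). A cluster was named from at least 3 markers at 2-fold. UMIs were summed per class and library and scaled to CPM. Class contrasts used edgeR 4.0.16 (TMM, filterByExpr, library as a block, adjusted p under 0.05), tested on simulated data. Standard errors were computed from the log2 difference and the F statistic. Group ratios have Clopper-Pearson intervals. Genes named are the 5 furthest in each direction of each contrast, the 5 (neurons) or 3 (glia) furthest in each group ratio, and a list of known channels. Members and lists were chosen with earlier results of these data known. Alternatives were DESeq2 1.42.0, no block, no low-count filter, stricter nuclei, the largest cluster only, equal nucleus weights, other UMI minimums and folds, median centring and leaving out libraries. Some genes are not reported here, in text or figures.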

Additional observations from a re-analysis of the deposited data

How the results depend on the processing

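Of the called Kcn genes, those that passed in all 8 alternative fits were 2 of 12 for D1 against D2 neurons, 34 of 53 for spiny neurons against interneurons, 37 of 56 for neurons against glia, 17 of 30 for astrocytes, 21 of 37 for oligodendrocytes, 31 of 38 for precursors and 26 of 35 for microglia. For D1 over D2, where 8 genes were higher and 4 lower, DESeq2 gave 5 and 0, no replicate block 5 and 0 (5 lower at an unadjusted p under 0.05 in edgeR), stricter nuclei 5 and 2, the largest clusters 4 and 14, and leaving out a library 5 to 7 and 1 to 3. Without the block the other contrasts' counts of calls moved by less than 1.5 times. No paired analysis was possible because each group has 1 library, as far as group ratios go. Stricter nuclei, with 51 Kcn genes tested in place of 65, gave 1 lower gene in neurons (3), 13 lower in oligodendrocytes (26) and 6 higher in microglia (10), main counts in parentheses. Leaving out a library gave 26 to 27 higher and 23 to 24 lower in spiny neurons, 50 to 52 and 2 to 3 in neurons, 15 to 17 and 9 to 10 in astrocytes, 11 to 12 and 19 to 23 in oligodendrocytes, 34 to 36 and 0 to 2 in precursors (0 without the high anxiety library, where edgeR gave 1 at an unadjusted p under 0.05, and 2 without the urolithin A library), and 7 to 9 and 23 to 25 in microglia. With the largest clusters the log2 difference turned to -1.32 for Kcnt2, -2.12 for Kcnj3 and -0.40 for Kcnh5 (D1 over D2) and to -0.00039 for Kcna1, 1.08 for Kcna3, -0.20 for Kcnab1, 2.38 for Kcnh8 and 2.56 for Kcnk10 (spiny over interneuron). In oligodendrocytes Kcnj6 ranged from -3.71 to 0.10 when a library was left out, turning without the low anxiety library, and Kcnmb4 turned to 0.26 with stricter nuclei. The cause of these turns was not tested. Calls between groups depended on the limits. For high over low anxiety, the 5 calls in D1 neurons became 10 with at least 150 UMIs, 3 with 600, 1 at 1.5-fold and 2 with stricter nuclei, the 4 in D2 neurons became 8, 2 and 0 under the first 3 of these, and the 6 in glia became 15, 3, 3 and 3. For urolithin A over high anxiety, the 6 calls in D1 neurons became 10 with 150 UMIs and 1 at 1.5-fold, and the 4 in D2 neurons became 7 with 150 UMIs, 1 with 600 and 1 at 1.5-fold. The 1 call in glia became 7 with 150 UMIs, 0 with 600, 0 with stricter nuclei, 0 with the largest clusters and 2 with equal nucleus weights. For urolithin A over low anxiety, the 11 calls in D1 neurons became 7 with the largest clusters (6 higher and 1 lower, in place of 5 and 6) and 3 at 1.5-fold, the 6 in D2 neurons became 3 with 600 UMIs, and the 7 in glia became 19, 2 and 3 with 150 UMIs, 600 UMIs and 1.5-fold. Between 1 and 9 Kcn genes had enough UMIs to be measured in each glial class.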
